A study of Mus musculus with 3 samples.

Results

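The interferon-inducible GTPases described here are 9 genes taken by name from a deposited table of 31053 genes. They comprise 5 guanylate-binding proteins (Gbp2, Gbp3, Gbp4, Gbp5 and Gbp7) and 4 immunity-related GTPases (Iigp1, Irgm1, Irgm2 and Igtp), and all 9 had counts. RNA was read from 12421 cells of female C57BL/6 mouse brains, either naive or bearing metastases of the mammary carcinoma line E0771, given through the carotid artery. Each condition had 2 brains, told apart by a hashing antibody, in which a DNA-tagged antibody marks the cells of a brain before pooling. The design text speaks of 6 pooled samples, and 4 hashing antibodies are in the files used here. Nothing else in the labels says that the brains came from separate days or animals, so p-values measure the spread between these 4 suspensions. All brains went into a single droplet run, and free RNA was thus shared by the droplets of all 4.

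Both GTPase families are part of cell-autonomous immunity. Interferon gamma and type I interferons bind their receptors, JAK kinases phosphorylate STAT proteins, and STAT complexes bind gamma-activated sites (GAS) or interferon-stimulated response elements (ISRE) in promoters. Guanylate-binding proteins coat pathogen vacuoles and bacteria and help to start inflammasome signalling. Among the immunity-related GTPases, Iigp1 is an effector that loads onto pathogen vacuoles, while Irgm1, Irgm2 and Igtp (Irgm3) are regulators that reside on the cell's own membranes and keep the effectors off them. The vessel wall and the choroid plexus, the epithelium that makes cerebrospinal fluid, are both known to respond to interferons.

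The promoters are shown for the interferon motifs named above. RefSeq promoter windows (GRCm38.p6, 250 bases before to 50 after an annotated start) were matched for 7 members, Gbp2, Gbp3, Gbp5, Gbp7, Irgm1, Irgm2 and Igtp. An ISRE core was searched as GAAA, any 2 bases and GAAA, and a GAS as TTC, any 3 bases and GAA, on both strands with overlapping matches counted. All 7 held an ISRE core in a window, while 3.44% of all 32851 windows did. A GAS match was in 4 of the 7 (Gbp5, Gbp7, Igtp and Irgm2), against 8.3% of all windows. A match is a run of letters and not a measured binding site. Each sequence below reads 5′ to 3′ on the gene's strand and holds the ISRE core nearest to the start, with up to 25 bases on each side, ending before the start. Capitals mark ISRE core and GAS matches.
Gbp2, chr3:142620579-142620638, plus strand: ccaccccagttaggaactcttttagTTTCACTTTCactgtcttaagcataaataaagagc
Gbp3, chr3:142559980-142560039, plus strand: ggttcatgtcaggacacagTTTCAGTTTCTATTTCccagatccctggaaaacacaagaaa
Gbp5, chr3:142496744-142496803, plus strand: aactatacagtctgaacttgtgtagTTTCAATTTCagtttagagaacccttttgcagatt
Gbp7, chr3:142530258-142530317, plus strand: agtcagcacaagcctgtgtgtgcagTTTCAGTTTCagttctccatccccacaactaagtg
Irgm1, chr11:48871421-48871469, minus strand: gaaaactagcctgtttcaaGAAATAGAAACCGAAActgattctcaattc
Igtp, chr11:58199497-58199555, plus strand: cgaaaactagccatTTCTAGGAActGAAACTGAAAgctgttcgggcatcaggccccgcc
Irgm2, chr11:58214888-58214947, plus strand: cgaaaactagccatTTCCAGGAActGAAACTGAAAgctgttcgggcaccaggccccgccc

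The Igtp and Irgm2 stretches, from neighbouring loci on chromosome 11, differed at 2 of 59 positions. In both a GAS match lies just before the ISRE core. In Gbp3 and Irgm1, 2 ISRE cores overlap. Gbp2, Gbp3, Gbp5 and Gbp7 lie in a row on chromosome 3, and in each the core lies on the opposite strand and reads as a pair of TTTC repeats. Gbp4 lies on chromosome 5. How reads shared by such related genes were counted is not given in the sources used here, so values of single paralogs carry that uncertainty.

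**Figure D1:**
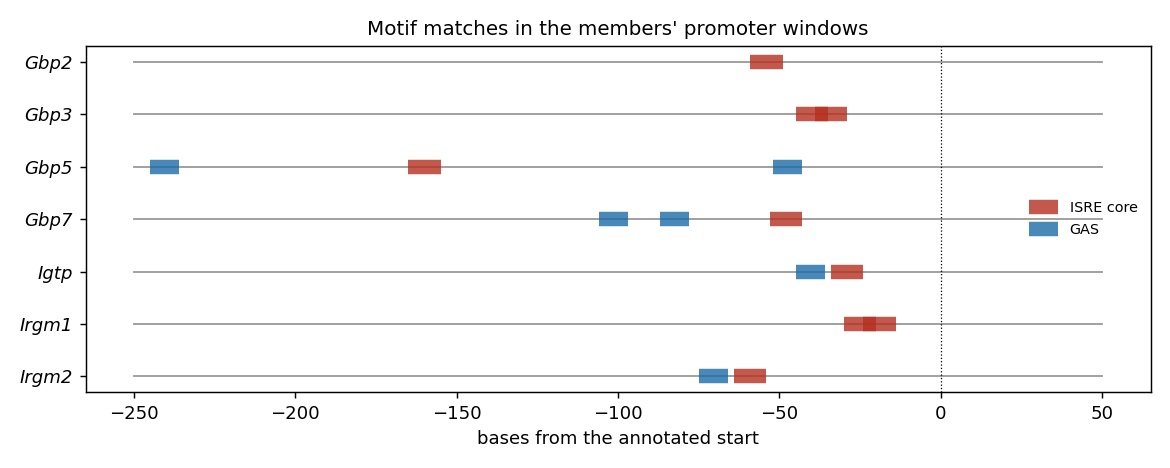
Motif matches along the promoter windows of 7 members, as bases from the annotated start (dotted line); red blocks are ISRE cores and blue blocks GAS matches. The ISRE core of Gbp5 begins 165 bases before the start, and those of the other members 24 to 64 bases before it.

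The members were sparse. They gave 5551 UMIs (unique molecular identifiers, each counting 1 captured RNA molecule), of which 106 and 55 came from the naive brains and 2062 and 3328 from the brains with metastases. The naive brains held 572 and 315 cells, and the brains with metastases 5360 and 6174, with medians of 1230 to 1393.5 and of 7294 to 7707.5 UMIs per cell. Single members ranged from 122 UMIs (Gbp4) to 1062 (Irgm1). Levels below are CPM, UMI counts scaled to a common total, for a brain's cells in a deposited cluster. Intervals are exact 95% Poisson intervals and cover counting error only. Levels of different genes are not ranked against each other.

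The authors' 13 clusters carry numbers only. By markers, cluster 2 was monocyte- and macrophage-like (led by Lyz2, Fcer1g and Ms4a6c), cluster 6 endothelial-like (Cldn5, Ly6c1, Flt1), clusters 7 and 9 choroid plexus-like (Ttr, Kl, Sostdc1) and cluster 11 mural-like (Tagln, Myl9, Rgs5). Cluster 12 held microglia genes (Cx3cr1, Tmem119) together with neutrophil genes (S100a8, S100a9) and is called by its number. Clusters 0, 1, 3 and 4 are large, and cluster 3 among them was led by interferon-induced genes (Usp18, Isg15, Ifit1). They held 40, 24, 14 and 10 cells labelled naive, against 3152, 2513, 1180 and 927 from brains with metastases. In cluster 0 the carcinoma marker Krt8 was at 576 and 417 CPM in naive brains and at 432 and 656 CPM with metastases. Whether those cells carry the right brain label was not tested. The clusters were drawn from the same expression values, so levels between clusters are described and not tested.

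With metastases, the 9 members together were highest in the monocyte- and macrophage-like cluster 2 and the endothelial-like cluster 6. Cluster 2 stood at 358 and 361 CPM in the 2 brains and cluster 6 at 358 and 335 CPM. Cluster 12 followed at 239 and 367 CPM, from 26 and 15 cells and 9 and 12 member UMIs. Cluster 8, with MHC class II, NK and T cell genes, stood at 142 ± 45.3 CPM (SD, n = 2), the choroid plexus-like cluster 9 at 135 ± 58.5 and cluster 3 at 98.2 ± 17.8. Clusters 10 and 7 followed at 73.4 ± 38.3 and 73 ± 11.2. The largest cluster, 0, was lowest at 14.3 ± 1.56 CPM. In that order, clusters 2, 6 and 12 overlapped with their neighbours, as did 8, 9, 3, 10 and 7, and so did 4 and 0. As UMI sums the values of cluster 12 were all above those of cluster 8. As means over cells the order turned, with 186 CPM in cluster 12 and 230 CPM in cluster 8.

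Single cells weighed on the levels of clusters 6 and 12. In cluster 12 of metastasis 2, 1 of the 15 cells held 9 of the 12 member UMIs, and the brain stood at 177 CPM without it, while metastasis 1 stood at 197 CPM without its own such cell. In cluster 6 of metastasis 1, 1 cell of 155, with 3909 UMIs in all, held 66 of the 158 member UMIs, or 41.8%. Without that cell the brain stood at 211 CPM in place of 358. In cluster 6 of metastasis 2 the cell with the most member UMIs held 7.75% of them. The cell of metastasis 1 had 85 UMIs of 8 endothelial markers, 1 UMI of the microglia and 1 of the monocyte and macrophage markers, and none of the T cell, NK cell, neutrophil or carcinoma markers. It had more UMIs than 83.2% of the cells of that cluster and brain. The authors' hashing class is singlet for it, as for all 12421 cells, which bears on droplets with cells of different brains. No doublet call was made from RNA, so whether its droplet held more than 1 cell of the same brain was not tested. Cluster 6 was higher when cells counted equally, at 512 CPM as a mean over cells and 583 CPM in cells thinned to 1000 UMIs, and cluster 7 likewise at 151 and 172 CPM. Both values of cluster 6 include the cell of metastasis 1, and neither was computed without it. Thinning left out 81 of 155 and 40 of 125 cells of cluster 6. The cell of metastasis 1 held 31 of the 44 Gbp2 UMIs and 9 of the 24 Iigp1 UMIs of cluster 6 in that brain.

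**Figure D2:**
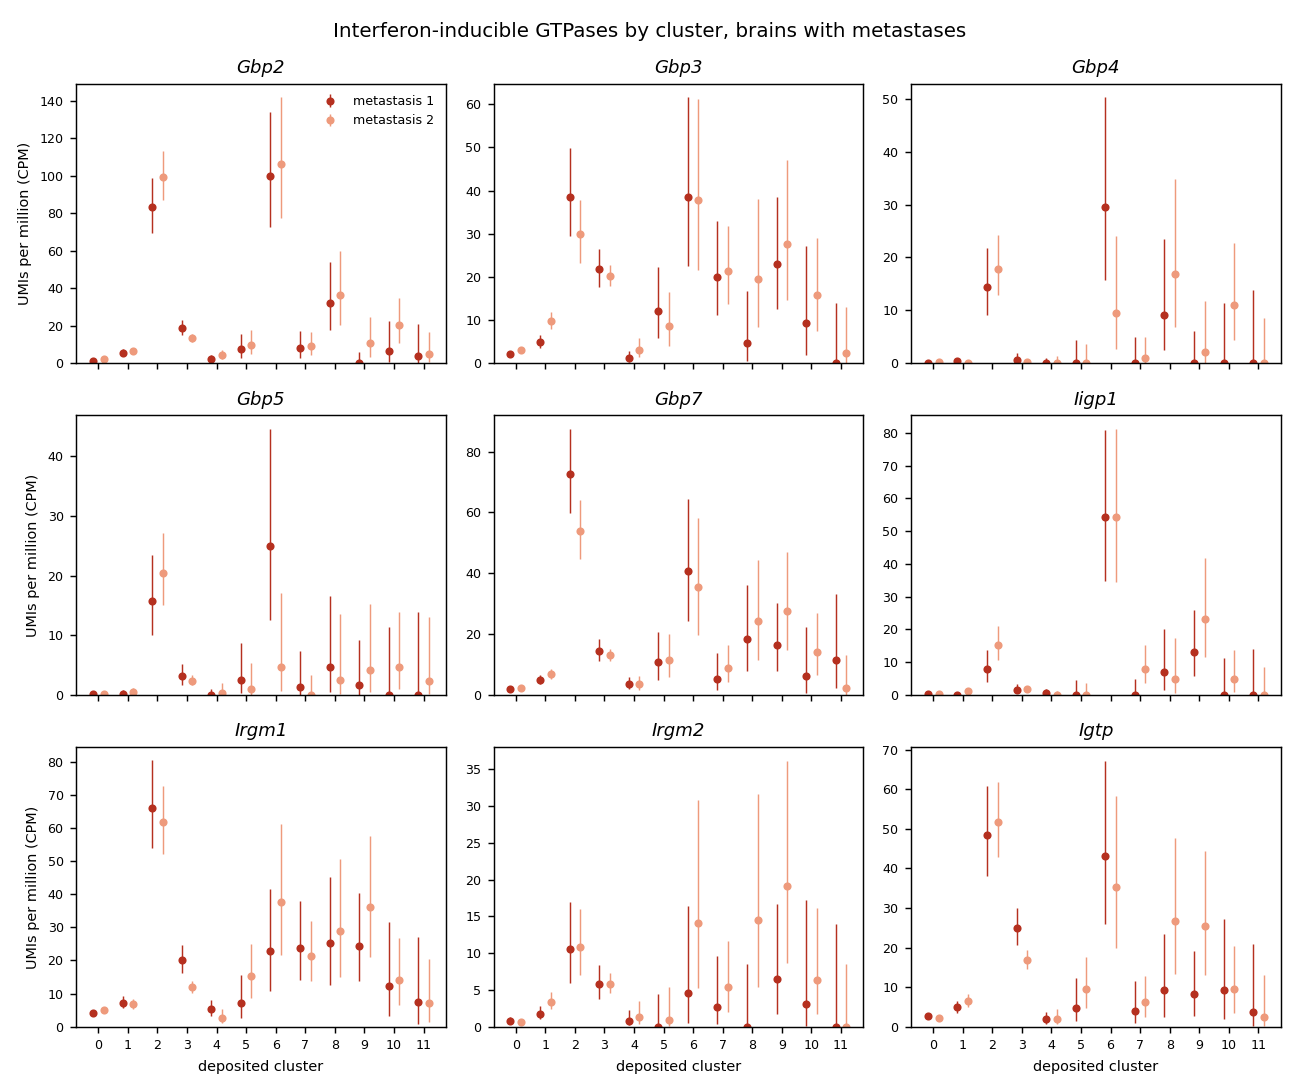
CPM of each member in each deposited cluster of the 2 brains with metastases; points are brains and bars exact 95% Poisson intervals, and each panel has its own axis. Cluster 12 is left out because of its few cells. Iigp1 peaks in cluster 6 at 54.4 and 54.2 CPM, while Irgm1 peaks in cluster 2 at 66.1 and 61.7 CPM.

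Members differed in where they were highest. Of the effectors, Iigp1 reached 54.4 and 54.2 CPM in cluster 6, against 7.86 and 15.2 CPM in cluster 2 and 13.1 and 23.3 CPM in cluster 9. Cluster 6 gave 40% and 19% of all Iigp1 UMIs of the brains with metastases from 0.964% and 0.737% of all their UMIs. Gbp2, a guanylate-binding protein that coats vacuoles, was at 99.8 and 106 CPM in cluster 6 and at 83.2 and 99.5 CPM in cluster 2. Gbp7 was at 72.7 and 53.9 CPM in cluster 2, above its 40.8 and 35.3 CPM in cluster 6. Gbp5, which promotes NLRP3 inflammasome assembly, was at 15.7 and 20.4 CPM in cluster 2, and at 24.9 and 4.71 CPM in cluster 6. The single cell of metastasis 1 held 7 of its 11 Gbp5 UMIs there, and without it that brain stood at 9.15 CPM. Gbp4 was at 14.4 and 17.8 CPM in cluster 2 and at 29.5 and 9.43 CPM in cluster 6, where the same cell held 4 of 13 UMIs and the level without it was 20.6 CPM. Without that cell Gbp2 in cluster 6 was at 29.7 CPM and Iigp1 at 34.3 CPM in metastasis 1.

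Of the regulators, Irgm1 was at 66.1 and 61.7 CPM in cluster 2 and at 22.7 and 37.7 CPM in cluster 6. Igtp was at 48.5 and 51.7 CPM in cluster 2 and at 43.1 and 35.3 CPM in cluster 6, and 27.5 CPM in metastasis 1 without the single cell. Gbp3, a guanylate-binding protein, was at 38.6 and 30 CPM in cluster 2 and at 38.6 and 37.7 CPM in cluster 6. Irgm2 was at 10.5 and 10.9 CPM in cluster 2, at 4.54 and 14.1 CPM in cluster 6 and at 6.54 and 19.1 CPM in cluster 9. In cluster 12 Irgm2 had 1 UMI in each brain (26.5 and 30.6 CPM) and Irgm1 had 2 in each (53.1 and 61.1 CPM). Igtp was at its highest there, at 53.1 and 122 CPM, from 2 and 4 UMIs, and 1 cell held all 4 of metastasis 2.

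Among the large clusters, cluster 3 carried more of every member than cluster 0 in both brains. The 9 members together were 8.37 and 5.54 times as high, Gbp3 10.8 and 6.71 times, Igtp 8.94 and 8.13 times and Irgm1 4.85 and 2.41 times. Cluster 3 gave 24.3% and 33.3% of the member UMIs from 9.89% and 22.5% of all UMIs. Since interferon-induced genes defined cluster 3, this is a description of the cluster.

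**Figure D3:**
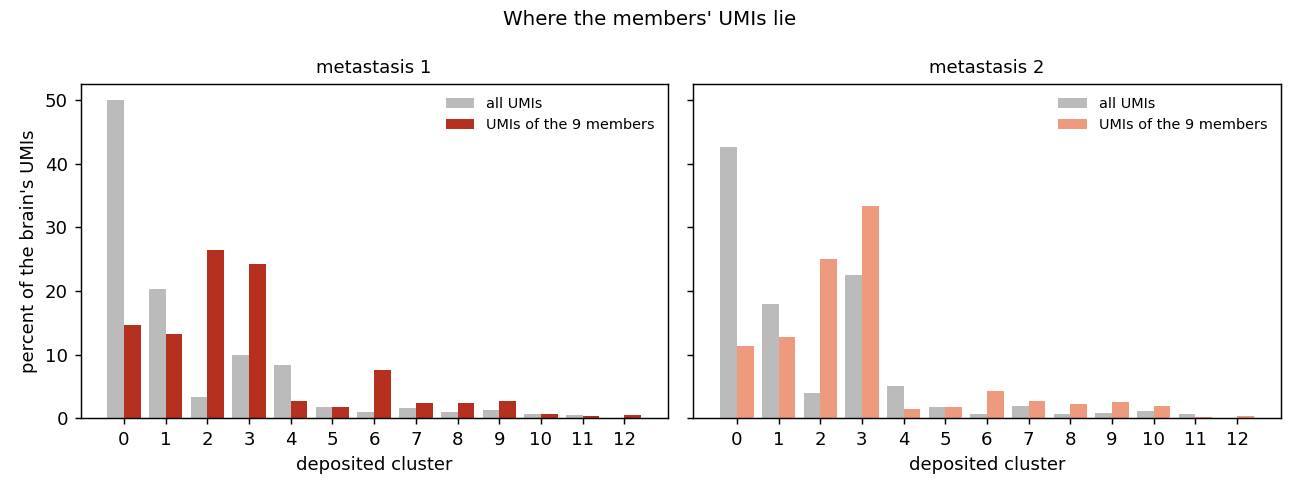
Share of all UMIs (grey) and of the UMIs of the 9 members (colour) that each deposited cluster held, in percent, for each brain with metastases. Cluster 0 holds 50.1% and 42.6% of all UMIs and 14.7% and 11.4% of member UMIs, while cluster 2 holds 3.34% and 3.99% of all UMIs and 26.5% and 25% of member UMIs.

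Over the 12 clusters with enough cells, genes ordered most like the 9 members included Ifit3 and Irf7 (Spearman's rho 0.972), Acaa1a (0.965), Oasl2, Trim12c and Trim30a (0.958) and Ifih1 (0.951), of 8932 genes compared. Most of these are interferon-induced. The points are clusters of the same pool and differ in depth. Of the ligands, Ifng gave 22 UMIs in the brains with metastases, of which cluster 8 held 6 and 9. Ifngr1, a receptor chain for interferon gamma, was at 189 and 228 CPM in cluster 2 and at 31.8 and 37.7 CPM in cluster 6. Of other family members, Gbp9 was at 21.6 and 18.7 CPM in cluster 2 and 15.9 and 9.43 CPM in cluster 6.

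Conditions could be tested where each of the 4 brains held at least 20 cells, in clusters 6, 7, 9 and 11. Tests were edgeR quasi-likelihood fits on UMIs summed per brain, with Benjamini-Hochberg adjustment over all genes tested. Each of the other clusters had fewer than 20 cells in at least 1 brain: cluster 2 had 10 and 5 naive cells, and cluster 12 had 60 and 33 naive cells but 15 in metastasis 2.

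In the endothelial-like cluster 6 the members were already present in naive brains, and their sum differed little with metastases. The 4 brains stood at 342 and 245 CPM (naive) and 358 and 335 CPM (metastases), a ratio of 1.15 (0.895 to 1.49). Without the cell with most member UMIs in each brain the ratio was 0.919 (0.703 to 1.21). In cells with at most 1 UMI of the carcinoma markers it was 1.75 (1.35 to 2.28), and in cells with no UMI of the immune markers 1.7 (1.1 to 2.71). The carcinoma subset kept the single cell of metastasis 1, which held 66 of that brain's 142 member UMIs there. The direction of the sum therefore depended on which cells were taken. Endothelial markers were at 12327 and 9334 CPM in naive brains and 5303 and 4814 CPM with metastases, all 10 of 10 detected in every brain. Carcinoma markers were at 132 and 545 CPM and at 272 and 533 CPM. Krt8, a keratin among the carcinoma markers, was at 125 and 127 CPM in naive brains and 270 and 330 CPM with metastases, without overlap. Their part in the result was not tested.

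Single members of cluster 6 moved differently. Of 6 members that passed the filter, 1 was called, against 7.58% of all 4539 genes tested in either direction. Naive brains gave 2 and 0 Iigp1 UMIs (13.2 and 0 CPM), and brains with metastases 24 and 23. Its naive and metastasis values did not overlap, and it rose by 2.78 on the log2 scale (SE 0.76, edgeR adjusted p = 0.048). Iigp1 passed the filter through the brains with metastases alone, which favoured a rise. The call was marginal and rested on few naive UMIs. It was lost without naive 2 (adjusted p = 0.145), with genes kept at any count (0.415), with at least 10 UMIs (0.0727) and in cells with at most 1 carcinoma UMI (0.166), where the change was 3.41. With either metastasis brain left out, or without the cells holding most member UMIs, Iigp1 did not pass the filter and had no test. It held with the other scaling (0.0384), without naive 1 (0.0304) and in cells without neutrophil UMIs (0.0338).

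Gbp2 was at 72.4 and 9.09 CPM in naive brains and 99.8 and 106 CPM with metastases, a change of 1.19 (SE 0.52, edgeR adjusted p = 0.178) that did not pass. The naive brains were far apart. Without naive 1 it was called, at 3.45 (adjusted p = 0.00847), and without the cell that held 31 of its UMIs and its counterparts it was 0.67 (adjusted p = 0.613). Gbp7 had the opposite order, with 79 and 81.8 CPM in naive brains and 40.8 and 35.3 CPM with metastases. Its groups did not overlap, but the change of -1.06 (SE 0.42, edgeR adjusted p = 0.139) did not pass, and in cells with at most 1 carcinoma UMI it was -0.46. Gbp3 (-0.12), Irgm1 (-0.33) and Igtp (-0.08) were not called either.

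**Figure D4:**
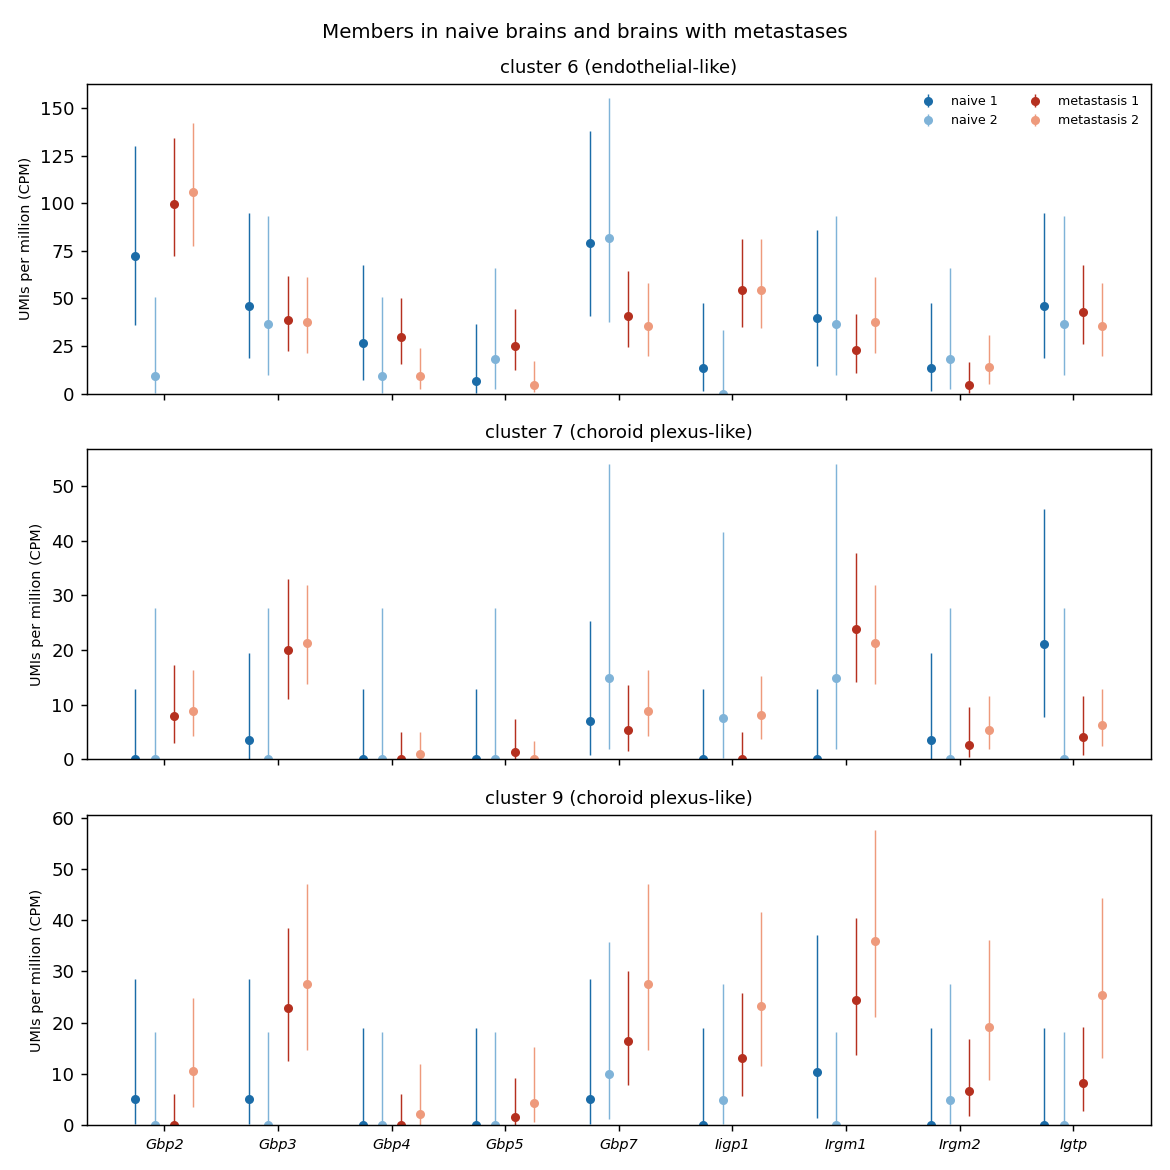
CPM of the 9 members in each brain in clusters 6, 7 and 9; points are brains, bars exact 95% Poisson intervals, blue naive and red with metastases. In cluster 9 both metastasis brains lie above both naive brains for Gbp3, Gbp7, Iigp1, Irgm1, Irgm2 and Igtp. Gbp5 does too, from 1 and 2 UMIs (1.63 and 4.24 CPM), below the 15.4 and 14.8 CPM that 3 naive UMIs would be. In metastasis 1, Iigp1 (13.1 CPM), Irgm2 (6.54 CPM) and Igtp (8.17 CPM) also lie below the 15.4 CPM of naive 1, which had none. In cluster 6 this order holds for Gbp2 and Iigp1. The share of all genes with such an order was not counted.

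In the choroid plexus-like cluster 9 the members were low in naive brains and higher with metastases. The 9 together gave 5 and 4 UMIs in 40 and 36 naive cells (25.7 and 19.7 CPM) and 57 and 83 UMIs in 97 and 72 cells with metastases (93.2 and 176 CPM). The groups did not overlap, and the ratio was 5.7 (2.92 to 12.7). The member UMIs were spread over 29 and 37 cells with metastases, and without the cell with most of them in each brain the ratio was 7.59 (3.39 to 21.1). In cells with at most 1 carcinoma UMI it was 3.28 (1.27 to 10.8), from 3 and 2 naive UMIs.

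By member, Irgm1 in cluster 9 went from 2 and 0 naive UMIs to 15 and 17 with metastases (ratio 5.86, 1.5 to 50.5). Gbp3 had 1 and 0 UMIs and then 14 and 13, a ratio of 9.89 (1.63 to 405). Iigp1 had 0 and 1 UMIs and then 8 and 11, a ratio of 6.96 (1.11 to 289). Igtp had none in naive brains, where 3 UMIs over the group would be 7.56 CPM, and 5 and 12 with metastases (8.17 and 25.4 CPM), so that metastasis 1 alone lay close to that limit. Gbp7 (ratio 2.81, 0.849 to 14.6) and Irgm2 (4.76, 0.715 to 202) were higher in both brains with intervals that reach below 1. Gbp2, Gbp4 and Gbp5 had at most 5 UMIs in any brain.

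None of the 9 passed the filter on low counts in cluster 9, so the edgeR fit gave them no test. With genes kept at any count, all 9 were tested and none was called, against 1.24% of 13607 genes. The lowest adjusted p in that edgeR fit were 0.0856 for Igtp and 0.0861 for Gbp3 (3.13 on the log2 scale), and 4 members had an unadjusted p under 0.05. With a filter of at least 10 UMIs, chosen after seeing the data, 6 were tested and none was called, against 0.0362% of 8292 genes. Of these 6, 4 had an unadjusted p under 0.05 in that edgeR fit. The lowest adjusted p was 0.379, for Gbp3, at 3.04 on the log2 scale. When each cell was thinned to 1000 UMIs, 3 of 40 and 1 of 36 naive cells and 4 of 97 and 13 of 72 cells with metastases kept a member UMI, so that measure overlapped between conditions.

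Other interferon-induced genes were tested in cluster 9. Of 22 type I interferon genes listed, 11 were tested and 10 rose, against 3.83% of all 3473 genes called higher, with a list median of 3.11 and a median of 0 for all genes. The 5 called with the largest changes were Rsad2, Trim30a (4.33, SE 0.81), Ifit3 (4.01, SE 0.72), Ifit1 (3.79, SE 0.41) and Isg15 (3.48, SE 0.42). Rsad2, an antiviral enzyme, had no naive UMIs and 42.1 ± 9.76 TMM-scaled CPM with metastases. Xaf1 was not called (1.81, edgeR adjusted p = 0.0669). The count was 3 without metastasis 1 and 5 without metastasis 2. Psmb8 (4.46) and Il18bp (4.12), the 2 interferon gamma genes tested, rose too. Both averaged 2.82 TMM-scaled CPM in naive brains, and Trim30a and Ifit3 averaged 2.83 and 5.67. Such genes, and Rsad2, passed the filter through the brains with metastases alone, which favoured a rise. With genes kept at any count, all 22 type I genes were tested, 13 were called higher and 21 had a positive change. With at least 10 UMIs, 3 of 18 were called higher. In cluster 9 choroid plexus markers were at 388597 and 407409 CPM in naive brains and 355089 and 319668 CPM with metastases. Carcinoma markers were at 288 and 301 CPM and at 317 and 405 CPM. Among them Krt8 was at 56.6 and 69.1 CPM in naive brains and 119 and 150 CPM with metastases, without overlap. Monocyte and macrophage markers were at 82.3 and 104 CPM and at 173 and 82.6 CPM, and the neutrophil markers summed to at most 10.3 CPM in any brain. Their part in the results of cluster 9 was not tested.

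Of the genes of the vacuole-targeting and autophagy list, whose products work with these GTPases, 1 of 10 rose in cluster 6 (Lgals3, 0.86), 2 of 11 in cluster 7 (Lgals3, 1.41, and Map1lc3b, 1.38), 1 of 9 in cluster 9 (Lgals3, 1.16) and 1 of 7 in the mural-like cluster 11 (Lgals3, 1.48, edgeR adjusted p = 4.4e-04). Of all genes tested, 2.34%, 14.2%, 3.83% and 3.82% were called higher in these clusters. Lgals3 encodes a lectin that marks damaged vacuoles. With metastases it averaged 1154, 1387, 502 and 2032 TMM-scaled CPM in clusters 6, 7, 9 and 11. In clusters 1, 8 and 10 it averaged 2407, 2153 and 2986, each scaled within its own cluster. The part of RNA from other cells in its rises was not tested. Interferon receptors and transducers had 8 genes tested in cluster 6, 3 in cluster 7 and none in cluster 9, and none was called. Of interferon gamma genes, 0 of 7 in cluster 6 and 1 of 6 in cluster 7 (Psmb8, 1.36) rose. Of type I interferon genes 2 of 11 rose in cluster 7 (Ifitm3, 1.34, and Bst2, 1.02), against the same 14.2%. In cluster 11, 1 of 2 interferon gamma genes tested fell (H2-Ab1, -2.33, edgeR adjusted p = 0.00583) and none rose, where 322 of 2620 genes were called lower. Krt8 in cluster 11 was at 143 and 38.4 CPM in naive brains and at 445 and 664 CPM with metastases. At most 1 carcinoma UMI was held by 46 of 48 and 27 of 27 naive cells. With metastases it was 8 of 27 and 6 of 37 cells. The part of carcinoma RNA in the changes of cluster 11 was not tested. No interferon ligand, inflammasome partner or other family member passed the filter in clusters 6, 7 and 9.

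In cluster 6, 1 of 14 tested type I interferon genes rose, against 2.34% of genes called higher, with a median of 0.5. It was Ifit3 (1.70, SE 0.43, edgeR adjusted p = 0.0379). The list median was 0.92 without metastasis 1 and 0.30 without metastasis 2. The count was 0 with DESeq2 and without the cell with most member UMIs in each brain (median 0.41). It was also 0 with genes kept at any count and with carcinoma or immune UMIs limited. In those fits no gene of any kind was called, so the count cannot tell whether the list changed. The list medians there were 0.66, 0.85 and 1.30. The difference of the condition effect between clusters 6 and 9, a comparison added after seeing the data, was called for none of 6 members, against 1.12% of 5531 genes. The values nearest to a call were those of Igtp (adjusted p = 0.323), Gbp7 (-2.38, SE 0.99, adjusted p = 0.326), Gbp3 (-3.11, adjusted p = 0.38) and Irgm1 (-2.66, adjusted p = 0.398), all 4 with an unadjusted edgeR p under 0.05. A different response of the 2 clusters was therefore not shown.

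The other choroid plexus-like cluster, 7, had lower marker levels with metastases, and its naive cells had a higher mitochondrial share. Choroid plexus markers were at 275342 and 258101 CPM in naive brains and 124479 and 74243 CPM with metastases, and the median mitochondrial share was 8.94% and 12.9% against 4.79% and 1.74%. Krt8, a carcinoma marker, was at 150 and 59.8 CPM and at 323 and 532 CPM. The part of these in the results was not tested. The 9 members stood at 35 and 37.4 CPM (naive) and at 65.1 and 80.9 CPM (metastases), a ratio of 2.09 (1.22 to 3.83), and of 3.75 (1.99 to 7.67) in cells with at most 1 carcinoma UMI. Of 2 members tested 1 was called, against 31.1% of 5963 genes. Both, Gbp3 and Irgm1, passed the filter through the brains with metastases alone, which favoured a rise. Igtp, at 21 and 0 CPM in naive brains and 3.98 and 6.23 CPM with metastases, was not tested. Naive brains gave 1 and 0 Gbp3 UMIs and brains with metastases 15 and 24, and Gbp3 rose by 2.77 (SE 0.96, edgeR adjusted p = 0.049). That call held with genes kept at any count (0.0208) and was lost with the other scaling (0.0519), without naive 1 (0.136), without naive 2 (0.178) and with at least 10 UMIs (0.0636), and Gbp3 had no test without either metastasis brain, in the cell subsets or without the cells holding most member UMIs. Irgm1 had 0 and 2 UMIs and then 18 and 24 (1.92, SE 0.94, edgeR adjusted p = 0.138), and it was called without naive 2 (0.0228), where no naive UMI was left. No member differed in its condition effect between clusters 6 and 7, against 3.51% of 6092 genes; none of the 6 tested had an unadjusted edgeR p under 0.05.

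In the mural-like cluster 11 no member was tested. None of the 9 had a UMI in 48 and 27 naive cells, where 3 UMIs would be 53.8 and 115 CPM. With metastases they gave 7 and 9 UMIs (26.4 and 21 CPM), below those limits, so no difference was detectable at this depth.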

How the data were processed

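UMI counts in the deposited RNA table are raw, as its whole numbers show, and the authors' per-cell table gives brain, condition, cluster and the percent of mitochondrial UMIs. Per the submitters' processing notes, the tools were Cell Ranger 3.0.2 and Seurat 3.0.1 and the build mm10. All cells in that table carry the hashing class singlet, so droplets that the hashing call marked with antibodies of different brains are not among them. Whether every singlet carries the right brain label was not tested. Doublets within a brain were not called here, and no cells were removed or corrected for free RNA. All cells came from 1 library, so no barcodes are shared between libraries.

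Members and lists were chosen with earlier results of these data known. Marker and pathway lists were fixed in writing, and pathway genes are named where called, at most 5 per list and cluster. Ifng, Ifngr1, Gbp9 and Xaf1 are named outside that rule. Look-alike genes needed 500 UMIs. UMIs were summed per brain and cluster and tested with edgeR 4.0.16 (R 4.3.3; TMM scaling, filterByExpr, adjusted p under 0.05). Differences between clusters used the brain as a block. Alternatives were other scaling (RLE), DESeq2 1.42.0, other filters, each brain left out and cell subsets with at least 5 cells per brain. The scripts were tested on simulated data. Promoters came from RefSeq tables; sequence of Iigp1 and some genes of the lists and look-alikes are not reported here.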

Additional observations from a re-analysis of the deposited data

How the results depend on the processing

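Depth limited every condition comparison: naive clusters held 4 to 52 member UMIs where members could be compared. The count of members called in cluster 6 (1) ranged from 0 to 2 with a brain left out and was 0 with genes kept at any count, with at least 10 UMIs, with at most 1 carcinoma UMI and without the cells with most member UMIs. In cluster 7 (1) it was 0 with RLE, at least 10 UMIs, no neutrophil UMIs or without those cells, and 0 to 1 with a naive brain left out. Gbp3 in cluster 6 turned to 0.04 at any count and 0.07 without naive 1 (-0.24 without naive 2); Igtp turned to 0.08 and 0.11 there (-0.20 without naive 2) and 0.01 without neutrophil UMIs. The ratio of the 9 members was 1.75 and 1.7 in cluster 6 with carcinoma or immune UMIs limited and 3.84 in cluster 7 without immune UMIs. With a brain left out it ranged from 1.01 to 1.41 in cluster 6, 1.82 to 2.27 in cluster 7 and 4.11 to 7.76 in cluster 9. Type I genes rising in cluster 6 (1) were 0 with DESeq2, any count, carcinoma or immune UMIs limited or without the top cells, 2 without neutrophil UMIs, and 0 to 4 with a brain left out. In cluster 9 (10) they were 3 with DESeq2 (of 3 with an adjusted p), 3 at 10 UMIs, 4 with carcinoma and 6 with immune UMIs limited, and 3 to 12 with a brain left out. The causes were not tested.

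Genes called in cluster 6 were 106 higher and 238 lower, and 65 and 110 with DESeq2. They were 0 and 0 at any count or with carcinoma or immune UMIs limited, so a count of 0 in those fits holds for every gene. In cluster 9 they were 133 and 16, and 3 and 0 at 10 UMIs. DESeq2 gave the members of clusters 6 and 7 no adjusted p, so it counts no lost call. Levels by mean over cells were 366 (cluster 2), 17.6 (4), 512 (6), 151 (7), 230 (8), 34.6 (11) and 186 CPM (12). Thinned to a common depth they were 10.2 (0), 382 (2), 21.3 (4), 40.9 (5), 583 (6), 172 (7), 222 (8) and 14.7 CPM (11). Cluster 6 stood above cluster 2 on both, with the metastasis 1 cell richest in member UMIs included. Whether that order holds without this cell was not tested. Without the replicate block, 0 members differed between clusters 6 and 7, 9 or 11, as with it. No paired analysis was possible between conditions because the brains' numbers only name them. With at least 10 cells per brain, which changes nothing in clusters 6 and 7, clusters 1, 8, 10 and 12 became testable; only cluster 1 had members tested, and none was called. Not run were the immune subset in cluster 11 and the difference with cluster 12, for too few cells.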
